A study of Mus musculus with 20 samples.

Results

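Chemokines and their receptors were represented by 51 of the 22575 probes on the arrays, for 50 genes. They were taken by gene symbol from the platform annotation, as every probe with 1 symbol that names a CC or CXC chemokine, a CC or CXC receptor, Cx3cl1, Cx3cr1 or Xcl1. The set held 20 probes for CC ligands, 12 for CXC ligands, 2 for the CX3C ligand Cx3cl1, 1 for the XC ligand Xcl1, 9 for CC receptors, 6 for CXC receptors and 1 for the CX3C receptor. All 51 probes had a value on all 20 arrays and entered the tests. All were found in RefSeq (GRCm38.p6) under the same symbols, and RefSeq lists Cxcl11 as a transcribed pseudogene.

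Chemokines are small secreted proteins that bind G protein-coupled receptors on leukocytes and make them move toward higher concentrations. Inflammatory chemokines are switched on by cytokines and interferons and recruit monocytes, neutrophils and activated T cells, whereas homeostatic chemokines place lymphocytes in their tissues. In the developing cortex Cxcl12 made by the meninges guides Cajal-Retzius cells and interneurons through Cxcr4, and in the mature cortex Cx3cl1 on neurons signals to Cx3cr1 on microglia.

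Cortex of Swiss Webster mice whose dams had been injected with cocaine was compared with cortex of mice whose dams had received saline, by 2-colour hybridisation. The dams were given 20 mg/kg cocaine under the skin, or saline on the same schedule, 2 times a day from embryonic day 8 to embryonic day 18, and the control dams were pair-fed. Pentobarbital at 50 mg/kg is listed for all 20 arrays. The fetal frontal and fetal occipital groups hold cerebral wall taken on embryonic day 18, within 1 h of the final dose, with tissue of 2 fetuses in each channel. The adult frontal and adult occipital groups hold tissue of offspring of such dams on postnatal day 30, and the number of animals per channel is not given for them. Each group has 5 arrays, and each array was taken to hold tissue of its own litters within a region. For fetal occipital replicates 1 and 1b, which share the title number 1, the labels leave this open. Fetal pieces hold the cortex with the transient zones beneath it. Each value is a log2 ratio, which is likely cocaine over saline, since cocaine RNA is in channel 1 and saline RNA in channel 2 on every array. The sources do not state it, and a dye swap is not labelled, so any constant dye effect on a spot is contained in every group mean. A ratio of bulk tissue cannot tell fewer cells of a type from less RNA per cell, and it gives no level, so whether a marker or a chemokine was expressed at all cannot be read from these data.

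Array-wide features touched every result below. The median ratio over all probes was set to 0 on each array, and the arrays correlated with each other between -0.04 and 0.86 over all probes. A brightness score was inferred from the ratios themselves, because dim spots give quotients of small whole numbers. Ratios rose with this score on all 20 arrays (Spearman correlation over all probes from 0.0885 to 0.716), and they also shifted with the place of a spot on the array, which explained between 13.4 and 32.9% of the variance on fetal occipital arrays and between 2.67 and 17.2% on the others. Brightness explained between 1.60 and 25.5% on fetal occipital arrays and between 18.7 and 52.9% on the others. What part of any chemokine ratio these trends account for was not tested, so values with both trends removed are given beside the calls of the chemokines, and as counts for the other genes. Fetal occipital replicates 1 and 1b share the title number 1, and fetal frontal replicate 1 has both dyes named for its cocaine channel.

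The chemokine system did not move as a block. Some ligands and receptors were higher after cocaine, and about as many were lower. Ccl27a, a ligand of skin-homing T cells, and Ccr6, a receptor of B cells and interleukin-17-producing T cells, were higher in all 4 groups. Ccl8, a monocyte-attracting ligand, Cxcl9, an interferon-induced T cell attractant, and Xcl1, a ligand made by T and natural killer cells that attracts dendritic cells, were lower in all 4. A probe was counted as higher or lower where its mean over the 5 arrays of a group differed from 0 at a limma adjusted p under 0.05, two-sided and adjusted over 22567 probes.

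In fetal frontal cortex 9 chemokine probes were higher and 9 lower, 35.3% of the 51, where 37% of all probes passed in either direction (18.7% higher and 18.4% lower). With the sign of fetal frontal replicate 1 turned 0 chemokine probes passed there by limma, and the share of all probes in that fit is not given here. Leaving out 1 array at a time, replicate 1 included, gave 11 to 20. In fetal occipital cortex 9 were higher and 6 lower, 29.4%, beside 24.7% of all probes (10.5% higher and 14.2% lower). In adult frontal cortex 15 were higher and 17 lower, 62.7%, beside 56.1% of all probes (26.8% higher and 29.4% lower). In adult occipital cortex 13 were higher and 15 lower, 54.9%, beside 48.2% of all probes (24.1% in each direction). Chemokine and receptor probes thus passed about as often as probes in general. Their median ratio was -0.10 in both fetal regions, and in the adult it was -0.31 frontally and -0.03 occipitally. The medians of all probes were -0.04 and -0.03 in the fetus and -0.04 and 0.01 in the adult.

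At least 1 group gave a call for 41 of the 51 probes. The 2 that were higher in all 4 groups stand beside 4.84% of all probes with that pattern, and the 3 that were lower in all 4 beside 5.28%. Both adult regions shared 11 higher chemokine probes (20.6% of all probes) and 13 lower ones (21.8% of all probes). No group gave a call for 10 probes, a pattern of 26.6% of all probes. These were the ligands Ccl5, Ccl6, Ccl24, Ccl28, Cxcl14 and Cxcl17, the receptors Ccr3, Cxcr6 and Cx3cr1, and the second of the 2 Cx3cl1 probes. Ccl2 alone had calls in opposite directions, a pattern found in 1.44% of all probes.

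**Figure D1:**
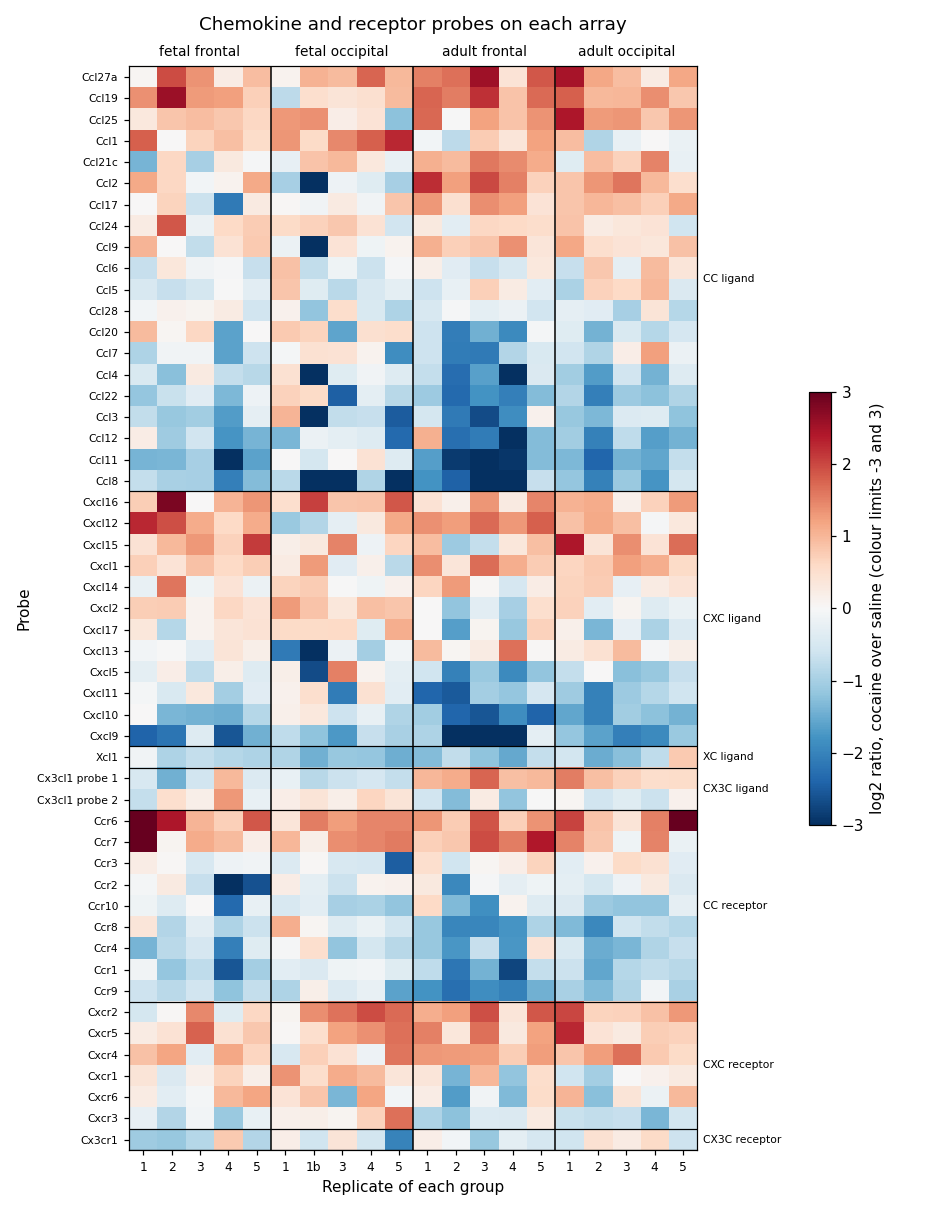
Log2 ratio of cocaine over saline on each of the 20 arrays (columns, by group and replicate) for the 51 chemokine and receptor probes (rows, by class and then by mean), in colour with limits at -3 and 3. Rows such as Ccr6 and Ccl27a are red in nearly every column, rows such as Cxcl9 and Ccl8 are blue in every column, and Ccl2 is blue only in the fetal occipital columns and 1 fetal frontal column.

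The direction of a chemokine's ratio went with the inferred brightness of its spot. Over the 51 probes the Spearman correlation of mean ratio with brightness was 0.81 frontally and 0.47 occipitally in the fetus, and 0.81 and 0.77 in the adult. Over all probes it was 0.74, 0.51, 0.78 and 0.74. These are correlations across probes of the same arrays, given as a description. The 16 chemokine probes among the dimmest 25% of all probes, among them Ccl8, Ccl11, Cxcl9, Cxcl10, Ccr1 and Ccr9, gave 0 higher and 33 lower calls over the 4 groups by limma. By group 7, 3, 12 and 11 of the 16 were lower, where 52.3, 28.8, 77 and 65.8% of all such dim probes were. The 12 among the brightest 25%, among them Cxcl12, Cxcr4, Ccl19, Ccr7, Cxcr2 and Cxcr5, gave 26 higher and 2 lower calls. By group 5, 4, 10 and 7 of the 12 were higher, where 51.7, 23.6, 66.4 and 58.9% of all such bright probes were. Both lower calls of these 12 came from fetal occipital cortex and belonged to Ccl2 and Cxcl13. The dimmest 25% of all probes had median ratios of -0.83, -0.51, -1.31 and -1.01 in the order of groups above, and the chemokines among them had -0.85, -0.44, -1.55 and -0.95.

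**Figure D2:**
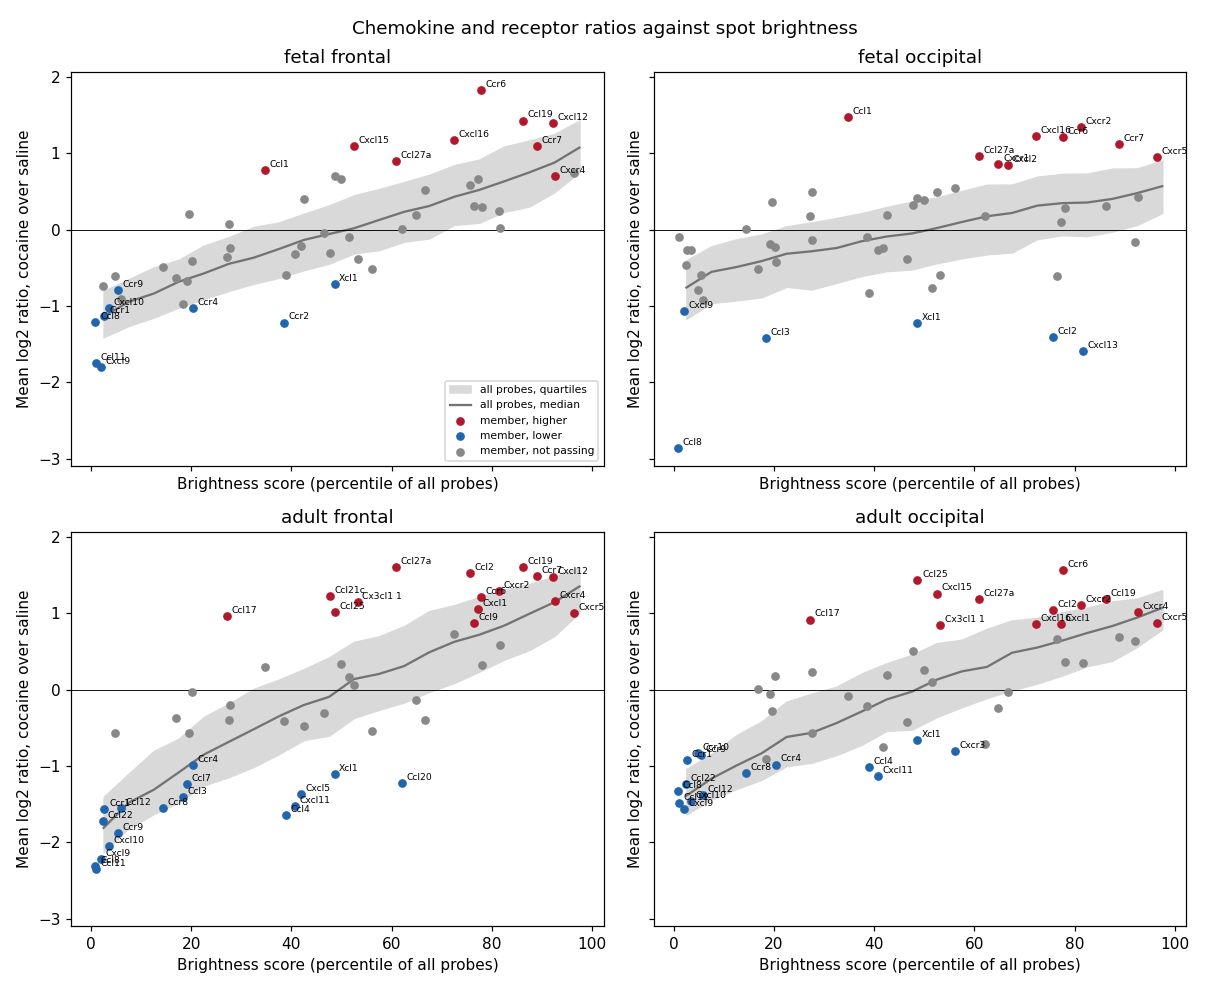
Mean log2 ratio of the 51 chemokine and receptor probes (vertical axis) against the inferred brightness of the spot as a percentile of all probes (horizontal axis), 1 panel per group. Red and blue points passed as higher or lower and are named, grey points did not pass, and the grey line and band are the median and quartiles of all probes, whose rise from left to right the chemokine points follow.

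The place of a spot on the array went with the ratio mainly in fetal occipital cortex. The median ratio of the spots within 10 rows and 10 places of a chemokine spot ranged from -1.33 to 0.89 there, against -0.40 to 0.61 in the frontal fetus, and in the adult -0.41 to 0.43 frontally and -0.35 to 0.31 occipitally. The Spearman correlation of a chemokine's ratio with its surroundings was 0.76 in fetal occipital cortex, and 0.46, 0.25 and 0.12 in the other groups in the same order. Among the first 72 places of the inferred 215 in a row, 8 of 21 chemokine probes were higher and 1 lower in fetal occipital cortex, where 17.1% of all probes there were higher and 5.07% lower. Among the last 71 places, 145 to 215, 0 of 12 were higher and 5 lower by limma, beside 5.57 and 27.5% of all probes. All probes had medians of 0.26 and -0.42 in these stretches.

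**Figure D3:**
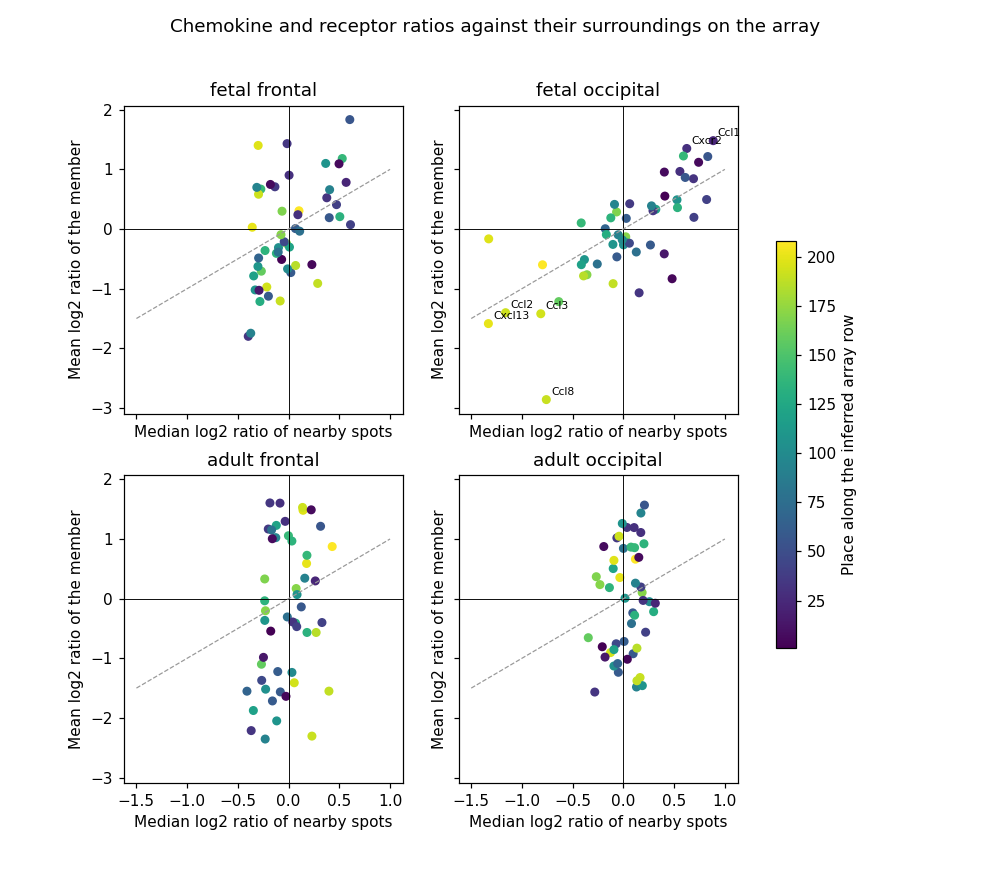
Mean log2 ratio of each chemokine or receptor probe (vertical axis) against the median log2 ratio of the spots around it on the array (horizontal axis), 1 panel per group, coloured by place in the inferred row; the dashed line marks equal values. In fetal occipital cortex the points rise from left to right with scatter around the line. Ccl2, Cxcl13 and Ccl3 are low on both axes, Ccl8 lies well below the line, and Ccl1 and Cxcr2 are high on both axes.

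With both trends removed from every array, 3 higher and 0 lower chemokine calls were left by limma in fetal frontal cortex, where 10.4% of all probes passed. The 3 were Ccl19, Ccl1 and Ccr6, which also passed before. In fetal occipital cortex 1 higher call (Ccl1) and 2 lower calls (Ccl8 and Cxcl13) were left, all made before, beside 5.47% of all probes. Adult frontal cortex had 10 higher and 7 lower calls beside 24.6% of all probes. Of these 17 calls 12 had been made before in the same direction, namely higher Ccl17, Ccl19, Ccl21c, Ccl25, Ccl27a and Cx3cl1 probe 1 and lower Ccl4, Ccl11, Ccl20, Cxcl5, Cxcl11 and Xcl1. Adult occipital cortex had 8 higher and 0 lower calls beside 15% of all probes, 6 of them made before, namely Ccl17, Ccl25, Ccl27a, Cxcl15, Ccr6 and Cx3cl1 probe 1. Adult Ccl5 and Ccl6 passed as higher in both regions only with the trends removed.

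**Figure D4:**
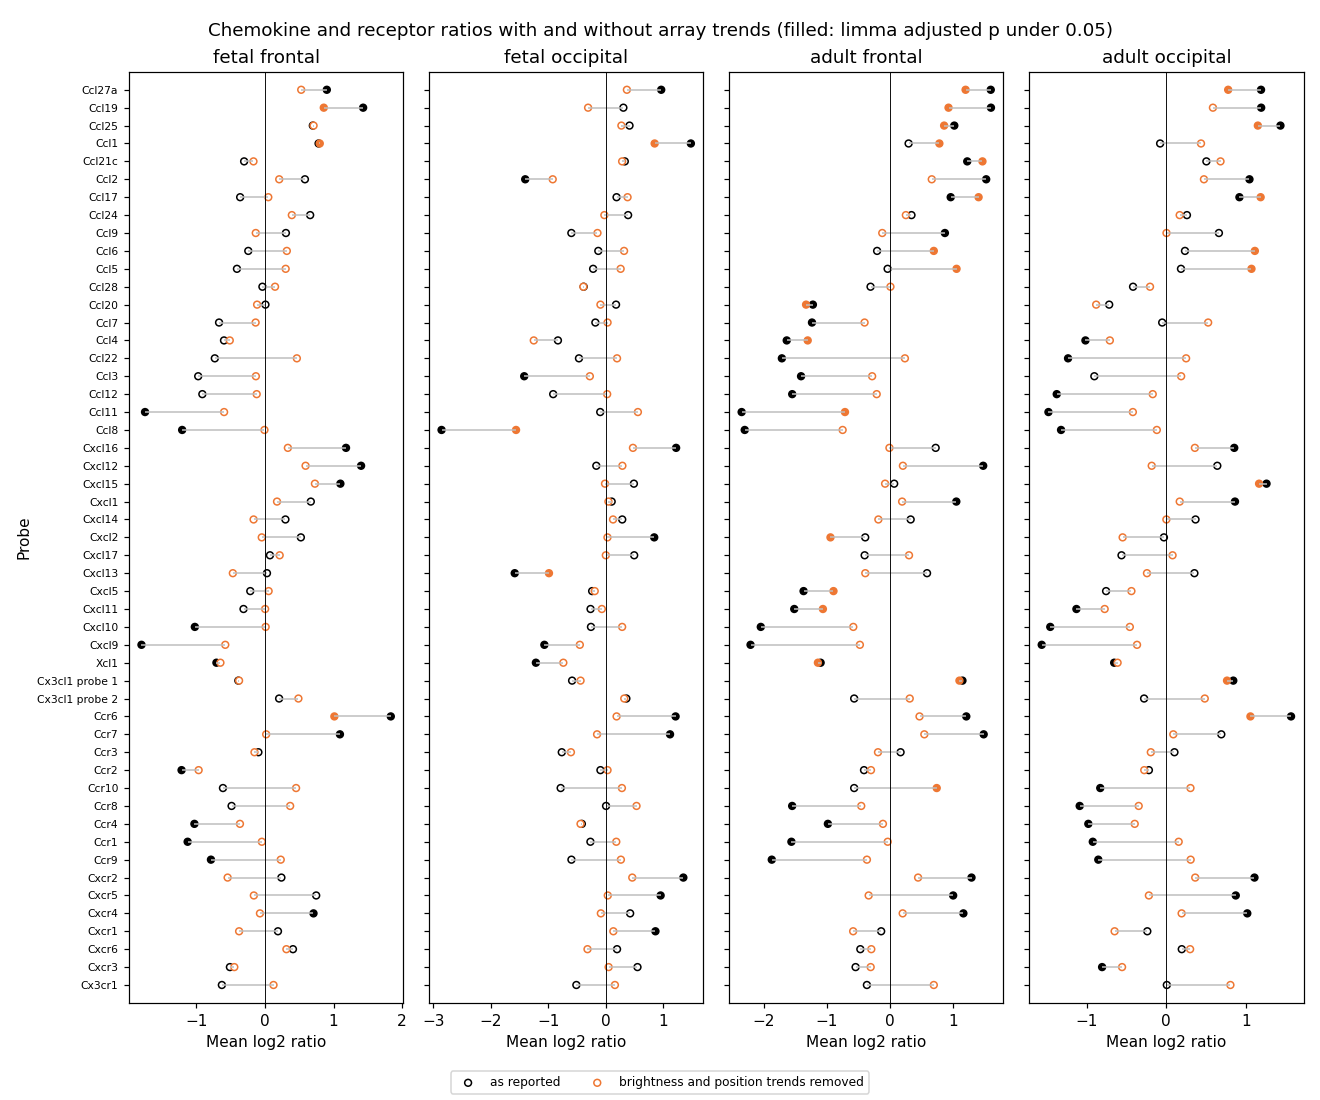
Mean log2 ratio of the 51 probes (rows) in each group as reported (black) and with the brightness and position trends removed (orange), with a grey line between them; filled points passed at a limma adjusted p under 0.05. Most long lines run toward 0, as for Ccl8, Cxcl9 and Ccr9, while Xcl1 and Cx3cl1 probe 1 in adult cortex hardly move and adult Ccl17 moves away from 0.

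Ccl8, which attracts monocytes, was lower after cocaine in all 4 groups. Values below are log2 ratios in the order of replicates 1 to 5, which for fetal occipital cortex are 1, 1b, 3, 4 and 5, followed by the mean ± SE of the limma model over 5 arrays. Ccl8 read -0.72, -0.96, -1.0, -2.06 and -1.29 in fetal frontal cortex (-1.21 ± 0.44, limma adjusted p = 0.0302). In fetal occipital cortex it read -0.81, -4.46, -3.25, -0.89 and -4.88 (-2.86 ± 0.44, adjusted p = 9.31e-05). All 10 fetal arrays were below 0, and 3 fetal occipital arrays lay far below the other 2. In adult frontal cortex Ccl8 stood at -1.80, -2.42, -3.15, -3.47 and -0.69 (-2.30 ± 0.44, adjusted p = 8.37e-05). In adult occipital cortex it stood at -1.17, -2.03, -1.11, -1.77 and -0.53 (-1.32 ± 0.44, adjusted p = 0.0141). The spot is among the dimmest 1% of probes, at percentile 0.866, and nearby spots in fetal occipital cortex had a median of -0.76. With both trends removed Ccl8 was at -1.56 in fetal occipital cortex (adjusted p = 0.0140) and between -0.75 and -0.01 in the other groups without passing.

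Ccl11, eotaxin, which attracts eosinophils through Ccr3, was lower in 3 groups. Its ratios were -1.39, -1.38, -1.0, -3.35 and -1.61 in fetal frontal cortex (-1.75 ± 0.31, limma adjusted p = 0.000296), with replicate 4 well below the rest. They were -1.66, -2.87, -3.02, -2.92 and -1.30 in adult frontal cortex (-2.35 ± 0.31, adjusted p = 2.89e-06) and -1.35, -2.38, -1.42, -1.55 and -0.71 in adult occipital cortex (-1.48 ± 0.31, adjusted p = 0.000781). Fetal occipital arrays lay on both sides of 0, between -0.52 and 0.42, with a mean of -0.10 ± 0.31 that did not pass. The probe is at brightness percentile 1.03, and only the adult frontal call held with both trends removed (-0.71, adjusted p = 0.0176). Ccl12, a mouse ligand of Ccr2, read -1.04, -2.02, -0.76, -1.65 and -1.42 in adult occipital cortex (-1.38 ± 0.40, adjusted p = 0.00604) and -1.55 ± 0.40 in adult frontal cortex (adjusted p = 0.00155), where replicate 1 was at 1.08. Without the trends its adult values were -0.17 and -0.21 and did not pass. Ccl7, another Ccr2 ligand, was lower in adult frontal cortex only (-1.24 ± 0.34, adjusted p = 0.00285), and at -0.40 without the trends it did not pass.

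Ccl2, the main attractant of Ccr2-bearing monocytes, was higher in adult cortex, where Ccl8 and Ccl12 were lower. On adult frontal arrays it read 2.21, 1.23, 1.98, 1.52 and 0.70 (1.53 ± 0.39, limma adjusted p = 0.00142). On adult occipital arrays it read 0.83, 1.32, 1.60, 0.98 and 0.50 (1.05 ± 0.39, adjusted p = 0.0268). All 10 adult arrays were above 0. On fetal frontal arrays it read 1.13, 0.62, -0.08, 0.11 and 1.13 (0.58 ± 0.39, adjusted p = 0.239). On fetal occipital arrays it read -0.99, -4.50, -0.15, -0.37 and -1.0 (-1.40 ± 0.39, adjusted p = 0.00993). These last 5 were all below 0 and overlapped no other group, with replicate 1b far below the rest, and the spots around Ccl2 had a median of -1.16. None of the 3 Ccl2 calls held with both trends removed, where its means were 0.21, -0.92, 0.66 and 0.47.

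Among other inflammatory CC ligands, Ccl1 was higher in both fetal regions. Ccl1, a ligand of Ccr8, read 1.79, 0.01, 0.66, 0.90 and 0.56 in fetal frontal cortex (0.78 ± 0.31, limma adjusted p = 0.0452). It read 1.33, 0.57, 1.45, 1.79 and 2.27 in fetal occipital cortex (1.48 ± 0.31, adjusted p = 0.00142), so that all 10 fetal arrays were above 0. Adult arrays lay on both sides of 0, at 0.30 ± 0.31 in frontal and -0.08 ± 0.31 in occipital cortex without passing. Both fetal calls held with the trends removed (0.80, adjusted p = 0.0456, and 0.85, adjusted p = 0.0487), although nearby spots had medians of 0.57 and 0.89. Ccl1 then passed as higher in adult frontal cortex too (0.79, adjusted p = 0.0268). Ccl3 and Ccl4, which macrophages release, were lower in adult frontal cortex (-1.41 ± 0.44, adjusted p = 0.00782, and -1.64 ± 0.41, adjusted p = 0.00122). Ccl3 was also lower in fetal occipital cortex (-1.42 ± 0.44, adjusted p = 0.0197), where replicate 1 was above 0 at 1.01 and replicate 1b the lowest at -4.20. Ccl4 was also lower in adult occipital cortex (-1.02 ± 0.41, adjusted p = 0.0400). With both trends removed only the adult frontal Ccl4 call of these held (-1.31, adjusted p = 0.0165). Ccl3 was then at -0.28 in both of its groups, and the spots around it had a median of -0.81 in fetal occipital cortex. Ccl9, a ligand of Ccr1 in mice, was higher in adult frontal cortex alone (0.87 ± 0.35, adjusted p = 0.0348) and at -0.12 without the trends, while Ccl6 and Ccl5 passed in no group.

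Of the 3 interferon-induced CXC ligands, which draw activated T cells through Cxcr3, Cxcl9 was lower in 4 groups, Cxcl10 in 3 and Cxcl11 in the 2 adult ones. Differences between adult and fetal cortex did not pass for any of them. Cxcl9 read -2.39, -2.19, -0.40, -2.57 and -1.44 in fetal frontal cortex (-1.80 ± 0.37, limma adjusted p = 0.000614) and -0.77, -1.20, -1.72, -0.70 and -0.97 in fetal occipital cortex (-1.07 ± 0.37, adjusted p = 0.0323). In adult frontal cortex it read -0.92, -3.30, -2.99, -3.56 and -0.30 (-2.21 ± 0.37, adjusted p = 2.34e-05), and in adult occipital cortex -1.15, -1.60, -2.05, -1.91 and -1.12 (-1.57 ± 0.37, adjusted p = 0.00146). All 20 arrays were below 0. Cxcl10 read -1.04, -2.38, -2.58, -1.86 and -2.40 in adult frontal cortex (-2.05 ± 0.28, adjusted p = 3.64e-06) and -1.55, -2.04, -1.05, -1.23 and -1.42 in adult occipital cortex (-1.46 ± 0.28, adjusted p = 0.000397). In fetal frontal cortex it read 0.02, -1.38, -1.42, -1.48 and -0.86 (-1.02 ± 0.28, adjusted p = 0.00571), where replicate 1 stood apart near 0. Fetal occipital arrays read 0.15, 0.32, -0.62, -0.23 and -0.91, on both sides of 0 (-0.26 ± 0.28, adjusted p = 0.520). Cxcl11 was lower in adult frontal cortex (-1.52 ± 0.33, adjusted p = 0.000364) and adult occipital cortex (-1.13 ± 0.33, adjusted p = 0.00711).

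The 3 interferon-induced ligands differed in brightness. Cxcl9 and Cxcl10 are dim, at percentiles 1.95 and 3.49, and none of their calls held with both trends removed, where the adult means lay between -0.58 and -0.37. Cxcl11, at percentile 40.7, still passed as lower in adult frontal cortex (-1.06, limma adjusted p = 0.0246). Their receptor Cxcr3, found on activated T cells, was lower in adult occipital cortex and is described with its ligand below.

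Neutrophil-attracting CXC ligands and their receptors were higher where they passed, with Cxcl5 the exception. Cxcr2, the receptor through which neutrophils answer Cxcl1, Cxcl2 and Cxcl5, read 0.07, 1.39, 1.62, 1.96 and 1.71 in fetal occipital cortex (1.35 ± 0.31, limma adjusted p = 0.00310). Replicate 1 was near 0 and the other 4 arrays were close together. Cxcr2 was also higher in adult frontal (1.30 ± 0.31, adjusted p = 0.000880) and adult occipital cortex (1.11 ± 0.31, adjusted p = 0.00517), and it did not pass in fetal frontal cortex (0.24 ± 0.31). Cxcr1 passed in fetal occipital cortex alone (0.86 ± 0.31, adjusted p = 0.0380). Cxcl1 was higher in adult frontal (1.05 ± 0.27, adjusted p = 0.00156) and adult occipital cortex (0.86 ± 0.27, adjusted p = 0.0103) and Cxcl2 in fetal occipital cortex (0.84 ± 0.26, adjusted p = 0.0203). Cxcl5 was lower in adult frontal cortex (-1.37 ± 0.36, adjusted p = 0.00179). The mouse ligand Cxcl15, known from the lung, read 0.44, 0.98, 1.30, 0.68 and 2.10 in fetal frontal cortex (1.10 ± 0.33, adjusted p = 0.0108) and 2.42, 0.39, 1.40, 0.40 and 1.69 in adult occipital cortex (1.26 ± 0.33, adjusted p = 0.00329). All 10 of these arrays were above 0, while adult frontal arrays lay on both sides (0.07 ± 0.33). Of this family only Cxcl15 in adult occipital cortex (1.17, adjusted p = 0.0185) and Cxcl5 in adult frontal cortex (-0.90, just under the threshold) still passed as before with both trends removed, and Cxcl2 then passed as lower in adult frontal cortex (-0.94, adjusted p = 0.00410).

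Homeostatic ligands place lymphocytes in lymph nodes, skin and gut, and of these Ccl27a, Ccl25, Ccl19 and Ccl21c were higher where they passed. Cxcl13, which gathers B cells and is described below, was lower in fetal occipital cortex. Ccl27a read 1.52, 1.65, 2.55, 0.42 and 1.87 in adult frontal cortex (1.60 ± 0.32, limma adjusted p = 0.000155) and 2.47, 1.17, 0.92, 0.24 and 1.15 in adult occipital cortex (1.19 ± 0.32, adjusted p = 0.00403). Fetal means were 0.90 ± 0.32 in frontal and 0.96 ± 0.32 in occipital cortex (adjusted p = 0.0286 and 0.0288), and all 20 arrays were above 0. The adult calls held with both trends removed (1.20, adjusted p = 0.00133, and 0.78, adjusted p = 0.0353), and the fetal ones did not (0.53 and 0.37). Ccl27a has a near-identical copy, Ccl27b, that its probe may also bind.

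Ccl25, which brings T cells to thymus and small intestine through Ccr9, read 2.43, 1.27, 1.33, 0.82 and 1.32 in adult occipital cortex (1.44 ± 0.31, limma adjusted p = 0.000920). Replicate 1 was the highest and all 5 arrays were above 0. In adult frontal cortex it averaged 1.02 ± 0.31 (adjusted p = 0.00658), and the fetal means of 0.70 ± 0.31 and 0.41 ± 0.31 did not pass. At brightness percentile 48.6 both adult calls held without the trends (1.15, adjusted p = 0.00839, in occipital and 0.86, adjusted p = 0.0286, in frontal cortex). Ccl17, a ligand of Ccr4, was likewise higher in adult frontal (0.97 ± 0.30, adjusted p = 0.00704) and adult occipital cortex (0.92 ± 0.30, adjusted p = 0.0128), and larger without the trends (1.41 and 1.19, adjusted p = 0.000519 and 0.00384). Ccl22, the other Ccr4 ligand, was lower in both (-1.72 ± 0.33, adjusted p = 9.83e-05, and -1.24 ± 0.33, adjusted p = 0.00366). The 2 ligands of 1 receptor thus went opposite ways, with Ccl22 at brightness percentile 2.31 and Ccl17 at 27.2, and Ccl22 read 0.24 and 0.25 without the trends and did not pass.

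Ccl19 and Ccl21c bind Ccr7, the receptor that leads T cells and dendritic cells into lymph nodes. Ccl19 read 1.37, 2.56, 1.29, 1.23 and 0.71 in fetal frontal cortex (1.43 ± 0.28, limma adjusted p = 0.000505). It read 1.74, 1.54, 2.19, 0.84 and 1.71 in adult frontal cortex (1.60 ± 0.28, adjusted p = 4.42e-05) and 1.80, 0.98, 1.00, 1.38 and 0.81 in adult occipital cortex (1.19 ± 0.28, adjusted p = 0.00166). In these 3 groups all 15 arrays were above 0, and in fetal occipital cortex the mean of 0.31 ± 0.28 did not pass. Both frontal calls held with the trends removed (0.86, adjusted p = 0.0119, in the fetus and 0.93, adjusted p = 0.00243, in the adult), and the adult occipital call did not. Ccl21c was higher in adult frontal cortex (1.23 ± 0.30, adjusted p = 0.00116) and also without the trends (1.47, adjusted p = 0.000405). Ccl19 and Ccl21c have near-identical copies in the mouse genome, so their probes may read more than 1 gene.

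Ccr7 itself read 3.12, 0.08, 1.12, 0.94 and 0.20 in fetal frontal cortex (1.09 ± 0.35, limma adjusted p = 0.0166) and 0.99, 0.17, 1.38, 1.48 and 1.57 in fetal occipital cortex (1.12 ± 0.35, adjusted p = 0.0213). In adult frontal cortex it read 0.72, 0.82, 1.96, 1.54 and 2.41 (1.49 ± 0.35, adjusted p = 0.000779). Adult occipital arrays ranged from -0.19 to 1.49 (0.69 ± 0.35, adjusted p = 0.105). The receptor was thus above 0 on all 15 arrays of 3 groups, yet replicate 1 carried the fetal frontal mean, and with both trends removed its means lay between -0.15 and 0.55 and did not pass.

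Cxcl16, a membrane-bound ligand of Cxcr6, read 0.52, 2.05, 0.83, 0.86 and 1.86 in fetal occipital cortex (1.22 ± 0.32, limma adjusted p = 0.00703). It was also higher in fetal frontal (1.18 ± 0.32, adjusted p = 0.00518) and adult occipital cortex (0.85 ± 0.32, adjusted p = 0.0284). Without the trends none of these 3 calls held (0.33, 0.47 and 0.36 in the order of groups above). Its receptor Cxcr6 passed in no group. Cxcl13, which gathers B cells through Cxcr5, read -2.12, -4.55, -0.18, -1.01 and -0.08 in fetal occipital cortex (-1.59 ± 0.39, adjusted p = 0.00479), with replicates 1 and 1b far below the other 3. It did not pass elsewhere, with means of 0.03, 0.59 and 0.35. Its spot lies at place 200 of the inferred row, where nearby spots had a median of -1.33, and with both trends removed it was at -0.99 (adjusted p = 0.0405). Its receptor Cxcr5 was higher in fetal occipital (0.95 ± 0.31, adjusted p = 0.0241), adult frontal (1.00 ± 0.31, adjusted p = 0.00681) and adult occipital cortex (0.87 ± 0.31, adjusted p = 0.0210), and without the trends these were at 0.035, -0.34 and -0.22 and did not pass.

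Xcl1 was lower on 19 of 20 arrays. It read -0.90, -1.43, -1.13, -1.16 and -1.47 in fetal occipital cortex (-1.22 ± 0.27, limma adjusted p = 0.00270), with little spread. Its other means were -0.71 ± 0.27 in fetal frontal (adjusted p = 0.0429), -1.10 ± 0.27 in adult frontal (adjusted p = 0.00125) and -0.66 ± 0.27 in adult occipital cortex (adjusted p = 0.0488), where replicate 5 was the only array above 0, at 0.78. Its receptor Xcr1 was higher in 3 groups, between 0.98 ± 0.30 and 1.38 ± 0.30, and in 0 with the trends removed by limma. Xcl1 is at brightness percentile 48.6, and with both trends removed its means were -0.65, -0.74, -1.14 and -0.61, of which the adult frontal one passed (adjusted p = 0.00393).

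CC receptors split by brightness like the ligands, with Ccr6 and Ccr7 higher and the rest lower where they passed. Ccr6, the receptor of Ccl20, read 3.15, 2.43, 1.03, 0.71 and 1.85 in fetal frontal cortex (1.83 ± 0.34, limma adjusted p = 0.000331). It read 0.36, 1.53, 1.25, 1.47 and 1.46 in fetal occipital cortex (1.22 ± 0.34, adjusted p = 0.0101), where replicate 1 lay below the other 4. It read 1.33, 0.76, 1.90, 0.71 and 1.36 in adult frontal cortex (1.21 ± 0.34, adjusted p = 0.00309) and 2.02, 0.85, 0.39, 1.52 and 3.07 in adult occipital cortex (1.57 ± 0.34, adjusted p = 0.000836). All 20 arrays were above 0. The fetal frontal and adult occipital calls held with both trends removed (1.01, adjusted p = 0.0432, and 1.06, adjusted p = 0.0264), and those of the other 2 groups did not. Ccl20, its ligand, went the other way in adult frontal cortex (-1.22 ± 0.35, adjusted p = 0.00379) and was at -1.33 without the trends (adjusted p = 0.00718).

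Ccr1, a receptor of monocytes and neutrophils for Ccl3 and Ccl5, read -0.10, -1.16, -0.77, -2.57 and -1.03 in fetal frontal cortex (-1.13 ± 0.31, limma adjusted p = 0.00520). It was lower in both adult regions too (-1.56 ± 0.31 and -0.92 ± 0.31, adjusted p = 0.000113 and 0.0142). Ccr4, carried by skin-homing and type 2 helper T cells, read -1.39, -0.81, -0.50, -2.06 and -0.37 in fetal frontal cortex (-1.03 ± 0.31, adjusted p = 0.0112). Its adult means were -0.98 ± 0.31 in both regions (adjusted p = 0.00837 and 0.0114). For both receptors all 5 fetal frontal arrays were below 0, and replicate 4 was the lowest.

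Ccr9, the gut-homing receptor, read -1.80, -2.27, -1.86, -2.02 and -1.43 in adult frontal cortex (-1.88 ± 0.26, limma adjusted p = 4.62e-06), a narrow range. Its means were -0.79 ± 0.26 in fetal frontal (adjusted p = 0.0203) and -0.85 ± 0.26 in adult occipital cortex (adjusted p = 0.00941). It was therefore lower in both adult regions, where its ligand Ccl25 was higher. Ccr8 was lower in adult frontal (-1.55 ± 0.28, adjusted p = 5.59e-05) and adult occipital cortex (-1.09 ± 0.28, adjusted p = 0.00291), and Ccr10, a receptor of Ccl27a, in adult occipital cortex (-0.83 ± 0.33, adjusted p = 0.0358). These receptors sit at brightness percentiles from 2.66 for Ccr1 to 20.4 for Ccr4. With both trends removed none of their lower calls held, and Ccr10 passed as higher in adult frontal cortex (0.74, adjusted p = 0.0273).

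Ligands and receptors that work as pairs were followed in all groups whatever their values. Cxcl12 read 2.26, 1.93, 1.11, 0.60 and 1.10 in fetal frontal cortex (1.40 ± 0.30, limma adjusted p = 0.000813) and 1.38, 1.26, 1.69, 1.29 and 1.78 in adult frontal cortex (1.48 ± 0.30, adjusted p = 0.000146). In fetal occipital cortex it read -1.12, -0.87, -0.26, 0.29 and 1.14 (-0.17 ± 0.30, adjusted p = 0.713), and in adult occipital cortex 0.88, 1.13, 0.90, -0.03 and 0.32 (0.64 ± 0.30, adjusted p = 0.0735). Frontal arrays of both ages were all above 0, and occipital arrays were not. The test of occipital against frontal cortex did not pass at either age, as stated below, and the spots around Cxcl12 had a median of -1.33 in fetal occipital cortex. Its receptor Cxcr4 read 0.87, 1.20, -0.31, 1.15 and 0.64 in fetal frontal cortex (0.71 ± 0.28, adjusted p = 0.0487) and -0.49, 0.72, 0.43, -0.14 and 1.60 in fetal occipital cortex (0.42 ± 0.28, adjusted p = 0.275). It read 1.30, 1.29, 1.25, 0.75 and 1.25 in adult frontal cortex (1.17 ± 0.28, adjusted p = 0.000960) and 0.83, 1.24, 1.64, 0.79 and 0.58 in adult occipital cortex (1.02 ± 0.28, adjusted p = 0.00481). Ackr3, the scavenging receptor of Cxcl12, was higher in both adult regions (1.38 ± 0.29 each), and at 0.37 and 0.51 without the trends it did not pass. Cxcl12 and Cxcr4 are bright, at percentiles 92.1 and 92.6, and with both trends removed their means lay between -0.18 and 0.59 and did not pass.

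The 2 probes of Cx3cl1, fractalkine, disagreed. The first read 1.00, 1.11, 1.75, 0.91 and 0.98 in adult frontal cortex (1.15 ± 0.28, limma adjusted p = 0.000827) and 1.54, 0.90, 0.69, 0.52 and 0.55 in adult occipital cortex (0.84 ± 0.28, adjusted p = 0.0134). On fetal frontal arrays it read -0.47, -1.44, -0.58, 0.96 and -0.40 (-0.39 ± 0.28, adjusted p = 0.273), and on fetal occipital arrays -0.22, -0.83, -0.65, -0.51 and -0.72 (-0.59 ± 0.28, adjusted p = 0.114). All 10 adult arrays were above 0 and 9 of 10 fetal arrays below it. The second probe read -0.58, -1.30, 0.25, -1.19 and -0.02 in adult frontal cortex (-0.57 ± 0.28, adjusted p = 0.0854) and 0.05, -0.58, -0.35, -0.65 and 0.13 in adult occipital cortex (-0.28 ± 0.28, adjusted p = 0.423). It read -0.72, 0.51, 0.17, 1.29 and -0.22 in fetal frontal cortex (0.21 ± 0.28, adjusted p = 0.587) and 0.21, 0.38, 0.17, 0.65 and 0.39 in fetal occipital cortex (0.36 ± 0.28, adjusted p = 0.357). The means of the 2 probes thus differed in sign in every group, with the first at brightness percentile 53.2 and the second at 19.5. Without the trends the first still passed in adult frontal (1.10, adjusted p = 0.00168) and adult occipital cortex (0.76, adjusted p = 0.0296).

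Cx3cr1, the fractalkine receptor of microglia, passed in no group. It read -1.07, -1.13, -0.85, 0.79 and -0.88 in fetal frontal cortex (-0.63 ± 0.32, limma adjusted p = 0.122) and 0.19, -0.60, 0.40, -0.55 and -2.0 in fetal occipital cortex (-0.51 ± 0.32, adjusted p = 0.241). Replicate 4 was the only fetal frontal array above 0. Adult frontal arrays read 0.20, -0.09, -1.15, -0.29 and -0.51 (-0.37 ± 0.32, adjusted p = 0.340) and adult occipital arrays -0.60, 0.45, 0.25, 0.58 and -0.63 (0.01 ± 0.32, adjusted p = 0.988). Ccr2, the receptor of Ccl2 on monocytes, was lower in fetal frontal cortex, at -0.06, 0.28, -0.69, -2.99 and -2.61 (-1.21 ± 0.36, adjusted p = 0.00983). Replicates 4 and 5 made that mean, and without the trends it was at -0.97 and did not pass (adjusted p = 0.0648). Elsewhere it read 0.23, -0.29, -0.66, 0.12 and 0.13 in fetal occipital, 0.28, -1.92, -0.03, -0.26 and -0.13 in adult frontal and -0.29, -0.53, -0.14, 0.29 and -0.43 in adult occipital cortex, with means of -0.09, -0.41 and -0.22 that did not pass.

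Ccl5, which draws T cells and monocytes, read -0.48, -0.70, -0.53, -0.02 and -0.31 in fetal frontal and 0.84, -0.37, -0.80, -0.48 and -0.28 in fetal occipital cortex. It read -0.62, -0.21, 0.71, 0.25 and -0.31 in adult frontal and -0.94, 0.70, 0.61, 1.00 and -0.44 in adult occipital cortex. Its means of -0.41, -0.22, -0.04 and 0.18 did not pass. Cxcr3 read -0.25, -0.88, -0.08, -1.12 and -0.22 in fetal frontal and 0.16, 0.17, 0.09, 0.69 and 1.66 in fetal occipital cortex, with means of -0.51 ± 0.27 and 0.55 ± 0.27 that did not pass. It read -0.92, -1.23, -0.41, -0.43 and 0.27 in adult frontal cortex (-0.54 ± 0.27, limma adjusted p = 0.0915) and -0.68, -0.75, -0.70, -1.37 and -0.54 in adult occipital cortex (-0.81 ± 0.27, adjusted p = 0.0170). Fetal occipital cortex was the only group with all 5 Cxcr3 arrays above 0, and without the trends Cxcr3 passed in none.

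Differences between the groups themselves were tested in the same model. Between occipital and frontal cortex 0 chemokine probes passed in the fetus by limma, where 0.0222% of all probes did, and 9 had an unadjusted p under 0.05 (15.5% of all probes). In the adult 0 passed, as for all probes (0%), and 3 had an unadjusted p under 0.05 (2.71% of all probes). Between adult and fetal frontal cortex 0 passed by limma (0.0266% of all probes, 0.00443% higher and 0.0222% lower), and 13 had an unadjusted p under 0.05 (14.1% of all probes).

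Between adult and fetal occipital cortex 5 chemokine probes differed, where 3.6% of all probes passed (2.51% higher and 1.09% lower in the adult). Adult minus fetal, the difference of the log2 ratios was 2.45 ± 0.55 for Ccl2 (limma adjusted p = 0.0204), 1.94 ± 0.55 for Cxcl13 (adjusted p = 0.0462) and 1.43 ± 0.39 for the first Cx3cl1 probe (adjusted p = 0.0396). It was -1.56 ± 0.44 for Ccl1 (adjusted p = 0.0433) and -1.36 ± 0.39 for Cxcr3 (adjusted p = 0.0462). Adult and fetal occipital arrays did not overlap for 10 of the 51 probes (9.66% of all probes), among them these 5 except Ccl1. These calls rest on few arrays. Without adult occipital replicate 3, or without fetal occipital replicates 1 and 1b together, 0 of the 5 passed, and without replicate 1b alone the difference fell to 1.67 for Ccl2 (adjusted p = 0.0331) and to 1.20 for Cxcl13 (adjusted p = 0.102). With both trends removed 0 passed, with differences of 1.40 for Ccl2, 0.75 for Cxcl13, 1.20 for the first Cx3cl1 probe, -0.41 for Ccl1 and -0.61 for Cxcr3 (adjusted p from 0.0654 to 0.580).

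**Figure D5:**
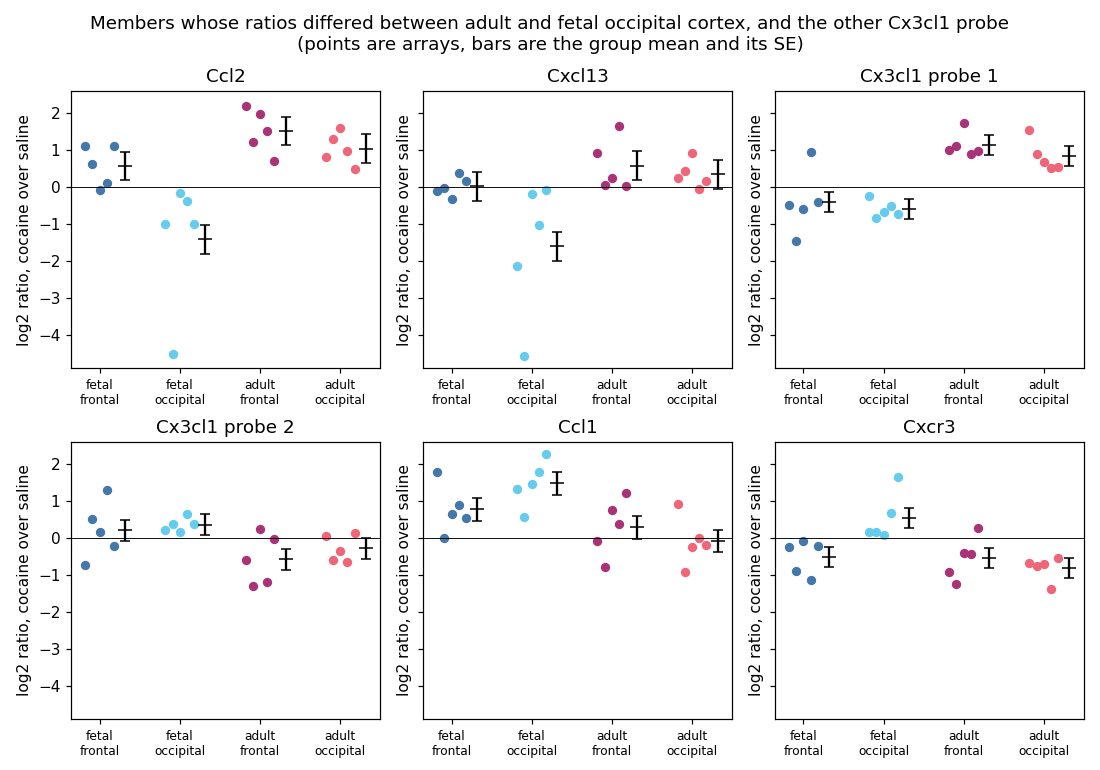
Log2 ratio of cocaine over saline on each array (points, by group) with the group mean and SE (bars) for the 5 probes that differed between adult and fetal occipital cortex and for the second Cx3cl1 probe. Fetal occipital replicate 1b lies near -4.5 for Ccl2 and Cxcl13, and the means of the first and second Cx3cl1 probes lie on opposite sides of 0 in each group, although single arrays do not always.

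Chemokine genes lie in clusters on the chromosomes, and neighbours did not move together as blocks. In the run of Ccl2, Ccl7, Ccl11, Ccl12, Ccl8 and Ccl1, 1 gene was higher and 4 lower in adult frontal cortex, from Ccl11 at -2.35 to Ccl2 at 1.53. The run of Cxcl5, Cxcl15, Cxcl1, Cxcl2, Cxcl9, Cxcl10 and Cxcl11 had 1 higher and 4 lower genes there and 2 higher and 3 lower in adult occipital cortex. Ccl27a and Ccl19, which are neighbours, had nearly equal means in the adult only, 1.60 each in frontal and 1.19 each in occipital cortex. In the fetus Ccl27a was at 0.902 and Ccl19 at 1.43 in frontal cortex, and at 0.965 and 0.306 in occipital cortex. The receptor run of Ccr9, Cxcr6, Ccr1, Ccr3 and Ccr2 had 0 higher genes in any group by limma and 3, 0, 2 and 2 lower ones in the order of groups above.

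Promoter sequence was available for 36 of the 50 genes, as 40 RefSeq windows (GRCm38.p6) from 250 bases before to 50 after a transcript start. The interferon-stimulated response element, searched on both strands as GAAA followed, after 2 free bases, by GAAA again, was found in 3 of the 40 windows (7.5%, against 3.44% of 32851 windows of all genes), those of Ccl19, Cxcl10 and Cxcl14. The gamma-activated site, searched as TTCNNNGAA, was found in 3 (7.5%, against 8.3%), those of Ccl17, Ccr6 and Cxcl14. A kappaB-like site, searched on both strands as GGG, 5 free bases and CC, was found in 24 (60%, against 50.8%). The 4 windows below are shown because Cxcl9 and Cxcl10 were among the lowest members and Ccl19 and Ccr6 among the highest, and capitals mark the interferon element in Cxcl10 and Ccl19 and the 2 gamma-activated sites in Ccr6. They are Cxcl9 at chr5:92328030-92328329 (minus strand), Cxcl10 at chr5:92348840-92349139 (minus), Ccl19 at chr4:42756316-42756615 (minus) and the first of 2 Ccr6 windows at chr17:8235793-8236092 (plus).
Cxcl9: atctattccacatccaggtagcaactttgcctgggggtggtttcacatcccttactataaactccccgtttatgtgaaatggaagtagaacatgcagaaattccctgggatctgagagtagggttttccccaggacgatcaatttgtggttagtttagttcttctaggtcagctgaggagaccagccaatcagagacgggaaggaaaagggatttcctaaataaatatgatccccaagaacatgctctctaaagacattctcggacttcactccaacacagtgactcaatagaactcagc
Cxcl10: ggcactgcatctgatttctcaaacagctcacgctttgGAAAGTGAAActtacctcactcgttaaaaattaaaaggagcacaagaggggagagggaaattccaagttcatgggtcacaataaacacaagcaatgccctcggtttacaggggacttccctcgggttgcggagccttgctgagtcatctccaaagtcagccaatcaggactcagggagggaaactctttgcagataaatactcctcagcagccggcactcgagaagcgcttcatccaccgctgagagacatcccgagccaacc
Ccl19: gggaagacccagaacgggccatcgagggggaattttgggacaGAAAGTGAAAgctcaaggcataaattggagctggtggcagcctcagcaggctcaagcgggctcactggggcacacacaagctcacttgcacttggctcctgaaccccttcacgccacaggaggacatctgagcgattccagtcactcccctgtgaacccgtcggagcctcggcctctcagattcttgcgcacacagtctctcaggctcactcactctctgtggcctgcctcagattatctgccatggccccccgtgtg
Ccr6: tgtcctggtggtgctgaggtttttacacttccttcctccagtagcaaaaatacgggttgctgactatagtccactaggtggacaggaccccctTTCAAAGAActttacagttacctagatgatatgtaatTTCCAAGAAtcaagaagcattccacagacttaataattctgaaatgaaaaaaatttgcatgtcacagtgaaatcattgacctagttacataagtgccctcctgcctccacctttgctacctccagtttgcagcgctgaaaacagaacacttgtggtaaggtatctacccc
The interferon element was thus present both in a gene that was lower after cocaine (Cxcl10) and in 1 that was higher (Ccl19), and Cxcl9 had neither element in its window. A match describes the letters only.

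Genes that work with chemokines were followed as lists. Of 38 probes for signalling behind chemokine receptors, 12 were higher and 1 lower in fetal frontal and 7 and 2 in fetal occipital cortex, while the adult had 16 and 2 frontally and 18 and 1 occipitally. Their medians were 0.49, 0.22, 0.66 and 0.69. The list's median brightness percentile was 72.1, and all probes between percentiles 70 and 75 had medians of 0.43, 0.32, 0.63 and 0.55. With both trends removed 2 were higher and 2 lower in fetal frontal, 0 and 0 by limma in fetal occipital, 6 and 2 in adult frontal and 3 and 1 in adult occipital cortex. Gnao1, a G protein alpha subunit abundant in neurons, was at 1.33 ± 0.31, 1.21 ± 0.31, 1.96 ± 0.31 and 1.34 ± 0.31 in the 4 groups and passed in each. Arrb2, an arrestin that turns receptors off, was at 1.08 ± 0.27, 0.94 ± 0.27, 1.71 ± 0.27 and 1.01 ± 0.27 and also passed in each. Gnai1, the inhibitory G protein alpha subunit through which chemokine receptors act, was higher in all groups but fetal occipital cortex and reached 1.89 ± 0.27 in adult frontal cortex. Arrb1 was higher in adult cortex (1.23 ± 0.28 and 1.56 ± 0.28). These 4 probes were bright, at percentiles from 83.7 to 100. With the trends removed, of their calls those of Gnao1 (0.65) and Gnai1 (0.81) in adult frontal cortex held.

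Cytokines and factors that induce chemokines went both ways. Of 35 probes 7 were higher and 4 lower in fetal frontal and 7 and 2 in fetal occipital cortex, while the adult had 10 and 8 frontally and 11 and 7 occipitally, with medians of 0.05, 0.28, 0.04 and 0.24. Il6, an inflammatory cytokine, was lower in fetal frontal cortex (-1.33 ± 0.32) and in both adult regions (-1.88 ± 0.32 frontally and -1.45 ± 0.32 occipitally). Ifnb1, the gene of interferon beta, was at 1.57 ± 0.28, 1.00 ± 0.28, 1.75 ± 0.28 and 1.01 ± 0.28 and passed in all 4. The interferon-induced Cxcl9, a dim probe at percentile 1.95, was lower in all 4 and passed in no group without the trends. A link between Ifnb1 and Cxcl9 was not tested. Irf9, a subunit of the factor that carries interferon signals, was higher in both adult regions (1.80 ± 0.33 and 1.70 ± 0.33), and Tlr2, a receptor for bacterial lipoproteins, in all groups but fetal occipital cortex. Il6 is at brightness percentile 13, and Ifnb1, Irf9 and Tlr2 are at 76.6, 82.6 and 65.3. Without the trends Il6 passed in no group, Ifnb1 in fetal frontal (0.86) and adult frontal cortex (1.11), Irf9 in adult frontal cortex (0.83) and Tlr2 in both adult regions (0.83 and 0.86). Of the list 2 were then higher and 2 lower in fetal frontal and 0 and 1 in fetal occipital cortex by limma, and in the adult 7 and 6 frontally and 4 and 2 occipitally.

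Proteases that cut chemokines were mostly higher where they passed. Of 16 probes 2 were higher and 0 lower by limma in fetal frontal, 3 and 1 in fetal occipital and 7 and 1 in each adult region, with medians of 0.24, 0.09, 0.56 and 0.39. Mmp8, a neutrophil collagenase, was higher in adult frontal (1.66 ± 0.39) and adult occipital cortex (1.85 ± 0.39). Mmp12, the macrophage elastase, was lower there (-1.40 ± 0.28 and -0.71 ± 0.28). Of these 4 calls only Mmp8 in adult occipital cortex held without the trends (1.16), where 1, 0, 3 and 3 proteases were higher and 0, 0, 1 and 0 lower by limma in the order of groups above. The 15 probes for chemokine-related genes outside the rule, such as atypical receptors, had 3 higher and 2 lower calls in fetal frontal and 2 and 1 in fetal occipital cortex, and in the adult 5 and 4 frontally and 4 and 1 occipitally. Cmklr1, the receptor of chemerin, was higher in all 4 groups, between 1.09 ± 0.29 and 1.40 ± 0.29, and without the trends in the 2 adult ones (0.77 and 0.93). Of the 15 probes 1, 0, 2 and 2 were then higher and 0, 0, 1 and 1 lower by limma.

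Markers of microglia and leukocytes gave calls in both directions. Of 12 probes for microglia and macrophages, 2 were higher and 2 lower in fetal frontal and 1 and 1 in fetal occipital cortex, and in the adult 4 and 3 frontally and 2 and 2 occipitally. Aif1, a microglial calcium-binding protein, was higher in all 4 groups (0.71 ± 0.27 to 1.51 ± 0.27), and Ptprc, the common leukocyte antigen, was lower in both adult regions (-1.25 ± 0.28 and -1.14 ± 0.28). Their brightness percentiles were 99.6 and 18.1, and neither passed in any group with the trends removed. Of the 12 probes 1, 0, 2 and 2 were then higher by limma in the order of groups above, and 0 were lower in any group. The median of the list on single arrays ran from -0.42 to 0.46, -0.46 to 0.41, -0.40 to 0.18 and -0.34 to 0.57 in the order of groups above.

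Of 9 probes for T and B lymphocytes 1 was higher and 1 lower in each fetal region, 1 and 3 in adult frontal and 0 and 1 in adult occipital cortex by limma. Cd79a, a B cell receptor subunit, was lower in all 4 groups (-1.63 ± 0.38 to -1.02 ± 0.38) at brightness percentile 9.28, and in 0 with the trends removed by limma. Cd3g, a T cell receptor subunit, was higher in fetal frontal (0.81 ± 0.27) and Cd2, a T cell adhesion molecule, in fetal occipital cortex (1.18 ± 0.30). With the trends removed 0, 1, 0 and 1 of the 9 lymphocyte probes were higher and 0, 0, 2 and 0 lower by limma. Of 8 neutrophil probes 0 passed in fetal frontal cortex and 1 was lower in fetal occipital cortex, while 1 was higher in each adult region and 4 and 2 were lower. Without the trends 0, 1, 0 and 1 neutrophil probes were higher and 1, 0, 2 and 0 lower by limma. Of 9 probes for meninges and fibroblasts 1 was higher and 3 lower, 0 and 2, 3 and 2, and 3 and 3 in the order of groups above, and Col1a2, a collagen chain, fell by 3.11 ± 0.38 in fetal occipital cortex. Col3a1, another collagen chain, was higher in fetal frontal (0.98 ± 0.31) and both adult regions (1.30 ± 0.31 and 1.11 ± 0.31). With the trends removed 0, 0, 1 and 0 of these 9 meningeal and fibroblast probes were higher and 0, 1, 0 and 0 lower by limma.

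Markers of cortical projection neurons, and of astrocytes in the adult, went more one way. Of 7 probes for cortical projection neurons 4, 2, 4 and 4 were higher and 0 lower in any group by limma. Their median brightness percentile was 80.1. Of all probes between brightness percentiles 75 and 100, 51.7, 23.6, 66.4 and 58.9% were higher by limma. Of those probes 0.727, 3.7, 1.38 and 0.975% were lower, so projection neuron markers went the way of bright probes in general. With the trends removed 1, 0, 1 and 1 projection neuron probes were higher and 0, 0, 1 and 0 lower. Of 8 astrocyte probes 1 was higher and 1 lower in fetal frontal and 0 and 1 in fetal occipital cortex, while 4 and 3 were higher and 0 lower in the adult, where 4 and 3 were still higher and 1 and 0 lower without the trends. Interneurons, which answer Cxcl12 through Cxcr4, had 8 probes, of which 1, 1, 3 and 3 were higher and 2, 2, 1 and 0 lower. With the trends removed 0, 0, 1 and 1 interneuron probes were higher and 4, 2, 1 and 1 lower by limma. Of 7 probes for Cajal-Retzius cells 0, 0, 0 and 1 were higher and 3, 2, 2 and 2 lower. Without the trends 0 of them were higher in any group by limma and 2, 0, 2 and 2 lower. Of 11 endothelial probes 1, 0, 2 and 2 were higher and 1, 1, 3 and 2 lower, and of 6 red cell probes 2, 0, 2 and 2 were higher and 2, 1, 4 and 3 lower. With the trends removed 1, 0, 1 and 0 endothelial probes were higher and 1, 0, 2 and 1 lower by limma. For red cells 0, 0, 1 and 1 were then higher and 0, 0, 1 and 0 lower. The part of these cell types in the chemokine ratios was not tested.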

How the data were processed

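Two-colour Agilent arrays measured RNA of mouse cortex, with cocaine RNA in channel 1 and saline RNA in channel 2 per the labels. The deposited values are 1 ratio per probe and array. They are log2 ratios, a base not stated in the sources used here and settled from the deposited values, since 97.2% of low quotients were whole at base 2 (69.6% for natural and 69.9% for common logarithms, within 0.001). How the authors corrected background and normalised is not stated in those sources. No intensities were used, so depth enters only as the number of arrays.

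Each array was centred on its median (-0.26 to 0.32 before centring), and its maximum, a marker for a failed ratio shared by 6 to 27 probes, was treated as missing. A probe needed 3 values per group, which removed 8 of 22575. One model of 4 group means over 20 arrays was fitted with limma 3.58.1 in R 4.3.3, and p-values were adjusted by the Benjamini-Hochberg method over 22567 probes at a threshold of 0.05. P-values treat arrays as replicates. The annotation gave 18218 probes 1 symbol, 16 several and 4341 none. Brightness was scored against 30 shifted copies of the values, with array offsets from 82 dim spots. Array rows of 215 places were inferred from probe numbers, as the best autocorrelation lag that divides the number of probes (216 was best of all lags), and trends were removed by lowess with spans of 0.3 (brightness and place in the row) and 0.05 (probe number). The fit was tested on simulated data.

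The members and gene lists were chosen with earlier results of these data known. Genes named with all array values were those with the largest changes in a group, the members that passed between groups, and fixed ligand and receptor pairs. Alternatives covered centring, scaling, quantile normalisation, missing values, array weights, position and brightness trends, the doubtful arrays, the replicate block and leaving out each array.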

Additional observations from a re-analysis of the deposited data

Results flagged for a closer look

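In 10 of the 112 sets of 5 arrays examined for the named members, 1 array lay far from the other 4 by Dixon's criterion, which chance does in about 1 in 20 sets. In fetal frontal cortex these were Ccl11 at -3.35 and Cx3cr1 at 0.79 on replicate 4, and Xcl1 at -0.12 on replicate 1. In fetal occipital cortex they were Ccl2 at -4.50 on replicate 1b and Ccr6 at 0.36 on replicate 1. In adult frontal cortex they were Ccr2 at -1.92 on replicate 2, the first Cx3cl1 probe at 1.75 on replicate 3 and Cxcr4 at 0.75 on replicate 4. In adult occipital cortex they were Ccr1 at -1.55 on replicate 2 and Cxcr3 at -1.37 on replicate 4.

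The response to cocaine differed between adult and fetal occipital cortex for 5 members by the limma test of the difference. Adult minus fetal, the log2 difference was 2.45 for Ccl2, 1.94 for Cxcl13, 1.43 for the first Cx3cl1 probe, -1.56 for Ccl1 and -1.36 for Cxcr3. Averaged with the second probe, Cx3cl1 had a difference of 0.40 that did not pass (adjusted p = 0.490).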

How the results depend on the processing

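Removing brightness trends lowered the counts of called members and of all called probes. With brightness trends removed, 4, 8, 15 and 6 members passed (frontal and occipital fetus, then frontal and occipital adult) in place of 18, 15, 32 and 28, and with position trends removed as well, 3, 3, 17 and 8. Of all probes 9.09, 16.6, 21.9 and 12.9% passed without brightness trends, in place of 37, 24.7, 56.1 and 48.2%. Without both trends 10.4, 5.47, 24.6 and 15% of all probes passed. Removing position trends alone left 5 in fetal occipital cortex, beside 13.2% of all probes (9 members with the trend along probe number), and a fit on its own arrays left 8. Turning fetal frontal replicate 1, which lists both dyes, left 0 there by limma, fewer than any removal of trends. The fetal occipital split of 9 higher and 6 lower became 9 and 8 without centring, and 9 and 11 with scaling or quantile normalisation. The shares of all probes in these fits and in the turned fit are not given here. Leaving out 1 array gave ranges of 11 to 20, 9 to 16, 30 to 33 and 19 to 30.

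Of the differences between groups, adult against fetal occipital cortex gave 5, and 8 with scaling, 9 with quantile normalisation, 8 with array weights, 3 on its own arrays, 2 without position trends, 1 with fetal frontal replicate 1 turned, 0 without both trends and 0 without replicates 1 and 1b, with 0 to 6 when 1 array was left out. Occipital against fetal frontal cortex gave 0, then 2 with scaling and 3 with quantile normalisation, and 0 to 1 when 1 array was left out. The other differences stayed at 0 to 0 by limma. The shares of all probes in these alternative fits are not given here.

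Of 100 means that passed with or without both trends, 15 changed sign when both were removed. Among members printed with all array values, those that changed with brightness removed were Ccl5 in adult frontal (0.90), Ccl8 in adult occipital (0.053), Ccr1 in adult frontal (0.13) and adult occipital (0.39), Ccr9 in fetal frontal (0.19) and adult occipital (0.37), Cxcl10 in fetal frontal (0.0046) and Cxcr4 in fetal frontal cortex (-0.21). With both removed they were Ccl5 (1.06), Ccr1 in adult occipital (0.16), Ccr9 (0.23 and 0.31), Cxcl10 (0.011), Cxcr4 (-0.072) and Ccr7 in fetal occipital cortex (-0.15). The others were Ccl6 (0.70) and Ccl9 (-0.12) in adult frontal cortex, and Ccl22 (0.24 and 0.25), Ccr10 (0.74 and 0.30) and Cxcr5 (-0.34 and -0.22) in both adult regions. Ccr7 in fetal frontal cortex read -0.15 with replicate 1 turned. The cause was not tested.

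Rows of 215 places fill the array exactly, but 216 had a marginally higher autocorrelation (chosen after seeing the data). With it 7 fetal occipital members passed without position trends, and 2, 4, 16 and 8 without both trends, with Ccl1 lost in fetal frontal and Ccl2 kept in fetal occipital cortex. Of all probes 8.53, 11.3, 22.9 and 12.9% then passed without both trends. Adult against fetal occipital cortex gave 3 and 0. Changed signs were Ccl5 (1.04), Ccr1 (0.252), Ccr7 in fetal frontal (-0.069), Ccr9 (0.208 and 0.284) and Cxcr4 (-0.094).

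Of 117 results for named members, removing both trends weakened 50 and reversed 7. Over all fits that left out 1 array, 127 results were weakened, 2201 stayed the same and 0 were reversed by limma.

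With a replicate block the fetal frontal count was 19 against 18, and all 117 results kept their side of the threshold (consensus correlation 0.0298). Arrays of 1 number correlated from -0.13 to 0.01 in the fetus and -0.08 to 0.38 in the adult. Arrays of different numbers correlated from -0.15 to 0.19 and from -0.41 to 0.40. Whether 1 number marks the same litters in both regions cannot be told from these correlations.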
